A study of Mus musculus with 4 samples.

Results

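Sox10 and 7 further genes of the oligodendrocyte and Schwann cell lineages were followed in C8-D1A cells, an established mouse line whose labels call it astrocyte. The genes were the transcription factors Sox10, Olig1, Olig2 and Egr2, the receptors Erbb3, Ngfr and Pdgfra, and the proteoglycan Cspg4. All 8 were found by symbol among the 24169 genes of the table. Sox10 was chosen by its high level in these 4 libraries, so its level is given as a description, and the other 7 were added because textbooks assign them to these lineages. Cells were untreated in 2 libraries (control 1 and control 2) and were kept for 24 h in 1 mM MBP in the other 2 (MBP 1 and MBP 2). The labels do not spell out MBP; the name stands for the treatment here, never for the myelin gene Mbp. They name no vehicle for the controls. Whether a group's libraries are separate cultures is not stated, so p-values may reflect technical spread alone.

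SOX10 belongs to the SOXE group of DNA-binding proteins and is made by neural crest cells, melanocytes, Schwann cells and the oligodendrocyte lineage, where it switches on myelin genes. In the brain it works beside OLIG2 in oligodendrocyte precursors, which carry the receptor PDGFRA and the proteoglycan NG2 (encoded by Cspg4) on their surface. In peripheral nerve it works with EGR2 to drive myelin genes, and immature Schwann cells carry the neuregulin receptor ERBB3 and the neurotrophin receptor p75 (encoded by Ngfr). Mature astrocytes are not known for Sox10.

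Levels are given in FPKM, fragments scaled to gene length and to library depth. Length is thus divided out, but GC content is not, and the annotation behind the lengths is not given. Comparisons between genes are therefore approximate. The depth behind the FPKM was 23600000 to 25900000 reads (rounded) in a library. It was recovered by taking the most frequent product of FPKM and exon length among single-exon genes as 1 read. Of all 24169 genes of the table, 12403 reached 1 FPKM in at least 2 libraries. Of 14 astrocyte markers, 7 did, led by Vim and Nes, which many immature cells share. Nfib and Glul of the same list also reached the level, with means of 27.4 and 13.3 FPKM over the 4 libraries. Several markers that define mature astrocytes more closely were near 0. In a library Gfap had 13 to 29 reads, Aldh1l1 6 to 12 reads and Slc1a3 0 to 1 reads. These are bulk libraries, in which fewer cells of a type and less RNA per cell cannot be told apart.

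The 8 genes fell into 3 ranges of level. Ngfr, Sox10 and Erbb3 were abundant, Olig1, Egr2 and Olig2 lay near 1 to 3 FPKM, and Cspg4 and Pdgfra were close to absent. In the order by mean, Ngfr (194.2 ± 9.44 FPKM, SD over the 4 libraries), Sox10 (93.4 ± 5.68) and Erbb3 (19.9 ± 1.23) did not overlap with each other or with any of the other genes. Olig1 (1.87 ± 0.554), Egr2 (1.80 ± 0.295) and Olig2 (1.48 ± 0.184) overlapped, so their order is not resolved. Cspg4 (0.117 ± 0.0352) and Pdgfra (0.0275 ± 0.0135) did not overlap with each other. For the test below, 6 members reached the filter of 1 FPKM in at least 2 libraries, and 2, Cspg4 and Pdgfra, did not.

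**Figure D1:**
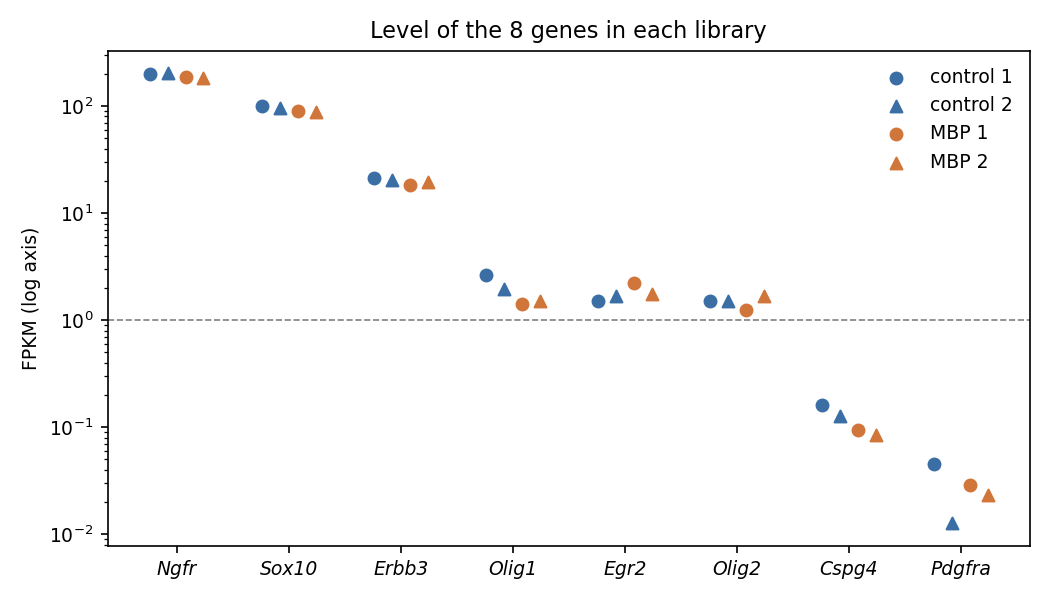
FPKM (log axis) of the 8 genes in each library, with circles and triangles for replicate 1 and 2, blue for control and orange for MBP. Ngfr, Sox10 and Erbb3 lie at or above 18.4 FPKM in all 4 libraries, and Cspg4 and Pdgfra lie far under the dashed line at 1 FPKM.

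Sequences at the start sites of the most and least abundant members, and of members between them, are shown so that their make-up can be set beside the levels. RefSeq (GRCm38.p6) gave a promoter window, 250 bases before to 50 after the start, for 5 of the 8 genes (Ngfr, Olig2, Egr2, Cspg4 and Pdgfra). The windows printed are Ngfr (minus strand, chr11:95587649-95587948), Olig2 (plus strand, chr16:91225300-91225599), Cspg4 (plus strand, chr9:56864854-56865153) and Pdgfra (plus strand, chr5:75152001-75152300), each written 5′ to 3′ on the gene's strand. Capitals mark CG dinucleotides, the sites that DNA methylation mostly uses in vertebrates.
Ngfr: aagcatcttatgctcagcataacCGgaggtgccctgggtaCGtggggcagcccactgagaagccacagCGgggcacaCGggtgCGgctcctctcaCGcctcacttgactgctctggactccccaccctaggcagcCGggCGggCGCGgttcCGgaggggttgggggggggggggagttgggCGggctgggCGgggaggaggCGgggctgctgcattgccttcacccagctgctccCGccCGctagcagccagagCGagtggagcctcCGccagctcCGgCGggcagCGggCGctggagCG
Olig2: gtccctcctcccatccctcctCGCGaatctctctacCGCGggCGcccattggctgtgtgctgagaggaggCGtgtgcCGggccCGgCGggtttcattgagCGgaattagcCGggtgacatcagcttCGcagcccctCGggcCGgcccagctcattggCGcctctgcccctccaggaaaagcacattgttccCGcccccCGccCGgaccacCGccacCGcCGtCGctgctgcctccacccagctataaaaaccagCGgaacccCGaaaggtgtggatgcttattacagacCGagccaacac
Cspg4: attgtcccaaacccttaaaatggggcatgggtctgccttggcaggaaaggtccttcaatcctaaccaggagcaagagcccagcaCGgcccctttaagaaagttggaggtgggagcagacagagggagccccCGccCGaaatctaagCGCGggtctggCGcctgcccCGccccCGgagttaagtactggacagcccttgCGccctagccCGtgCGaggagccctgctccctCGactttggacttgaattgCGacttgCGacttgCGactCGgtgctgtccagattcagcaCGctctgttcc
Pdgfra: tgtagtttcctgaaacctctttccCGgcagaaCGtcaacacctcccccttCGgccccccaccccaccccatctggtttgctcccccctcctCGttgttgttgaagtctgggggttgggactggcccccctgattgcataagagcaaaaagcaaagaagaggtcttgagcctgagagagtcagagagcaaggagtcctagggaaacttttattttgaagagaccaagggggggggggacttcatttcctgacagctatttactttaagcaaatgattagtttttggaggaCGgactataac

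The Ngfr window held 23 CG dinucleotides, more than 78.5% of the 32851 RefSeq windows of 300 bases, whose median was 7. Olig2 held 25, Cspg4 17 and Pdgfra 5. The 5 annotated starts of Egr2 held 16 to 32. The window of Olig2, a gene near 1 FPKM, thus held about as many as that of Ngfr, and the Cspg4 window was above the median although the gene was close to absent. Methylation was not measured. The words ACAAAG and ACAATG, which SOX proteins can bind, were searched on both strands. ACAAAG was in none of the members' windows, against 18.7% of all windows, and ACAATG was in that of Olig2 alone, against 12.6%. The E-box word CANNTG had 2 matches in the Ngfr window, 2 in that of Pdgfra and 0 in those of Olig2 and Cspg4, and was in 72.3% of all windows. A match describes the letters and shows no binding.

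Sox10 (chromosome 15, 79154913 to 79164490, minus strand, GRCm38) measured 99.97 and 96.1 FPKM without MBP and 89.6 and 87.8 with it. By mean it was number 277 of all genes and 268 of protein-coding genes, so 98.9% of genes in the table had a lower mean. Both MBP libraries lay under both controls. Its relatives of the SOXE group were far lower. Sox9, the SOXE factor of astrocytes and their precursors, measured 2.30 and 2.22 FPKM without MBP and 2.32 and 2.50 with it. Sox8 lay between 0.0268 and 0.171 FPKM. Sox10 was 35.1 to 43.4 times Sox9 within a library.

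Of 19 SOX genes listed, 13 were in the table and 8 reached the filter, against 12403 of all 24169 genes. After Sox10, the highest were Sox4, a factor of immature neural and other cells, at 78.1 ± 4.41 FPKM (SD, all 4 libraries), and Sox2, a stem cell factor that immature Schwann cells also make, at 59.3 ± 6.16. Sox10 exceeded Sox4 by a factor of 1.08 to 1.25 and Sox2 by 1.48 to 1.71 within a library. Sox6, a SOXD factor of oligodendrocyte precursors, had 11.2 ± 0.353 FPKM. The other SOXD genes had means of 8.79 (Sox13) and 0.495 FPKM (Sox5). Of genes whose products work with SOX10 or change chromatin, all 17 in the table reached the filter. Among them Chd4 had a mean of 71.6 FPKM, Smarca4, the motor of a chromatin remodelling complex, 53.6, the deacetylase Hdac1 37.9, Zeb2, a repressor of Schwann cell inhibitors, 28.5, and Pax3, a partner of SOX10 in neural crest, 23.3.

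The bHLH factors of the oligodendrocyte lineage were present at low level. Olig1 (chromosome 16, 91269772 to 91271933, plus strand) measured 2.62 and 1.96 FPKM without MBP and 1.41 and 1.50 with it, from 138, 100, 73 and 84 reads. Olig2 (chromosome 16, 91225550 to 91228677, plus strand), which lies 41.1 kb from Olig1, measured 1.52 and 1.50 FPKM without MBP and 1.23 and 1.68 with it. Control 1 was the highest library for Olig1, and for Olig2 the MBP libraries stood on either side of the controls. Sox10 was 52.3 to 72.7 times Olig2 within a library. Olig3, the related gene of the spinal cord, had 0 to 4 reads. Several partners and opponents of these factors were more abundant. The E proteins Tcf3, Tcf12 and Tcf4, with which OLIG proteins pair, had means of 34.3, 20.5 and 15.9 FPKM. Id1 and Id2, which keep E proteins from DNA, had 74.7 and 26.6.

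Egr2 (chromosome 10, 67535475 to 67542188, plus strand), the zinc-finger factor that starts myelination in Schwann cells, measured 1.52 and 1.69 FPKM without MBP and 2.21 and 1.76 with it, from 126, 135, 180 and 155 reads. Both MBP libraries were above both controls, with MBP 1 the highest. Its relative Egr1, an immediate early gene, measured 10.1 and 10.4 FPKM without MBP and 18.4 and 11.7 with it, and MBP 1 was the highest library there as well. Egr1 was 6.15 to 8.32 times Egr2 within a library. The corepressors Nab1 and Nab2, which bind EGR proteins, had means of 12.5 and 24.4 FPKM, and Egr3 and Egr4 of 0.270 and 0.103.

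Ngfr (chromosome 11, 95568818 to 95587735, minus strand), the most abundant member, measured 201.5 and 202.8 FPKM without MBP and 188.7 and 183.7 with it. It was number 112 of all genes by mean and 2.02 to 2.11 times Sox10 within a library. Both MBP libraries lay under both controls. The TRK receptors with which p75 pairs were near 0, with 0 to 1 reads for Ntrk2 and 16 to 30 reads for Ntrk3. Sortilin (Sort1), its partner for uncleaved neurotrophins, had a mean of 22.4 FPKM and Lingo1, its partner for myelin inhibitors, 10.5. The ligand gene Bdnf had 2.80 ± 0.251 FPKM (SD, all 4 libraries). Maged1 and Bex3, whose products bind the intracellular part of p75, had means of 62.3 and 29.4. Ntf3 was not analysed here.

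Erbb3 (chromosome 10, 128567523 to 128589652, minus strand) measured 21.2 and 20.5 FPKM without MBP and 18.4 and 19.5 with it. Its kinase-active partner Erbb2 measured 6.34 and 6.42 FPKM without MBP and 5.91 and 5.40 with it, so Erbb3 was 3.11 to 3.61 times Erbb2 within a library. Both genes had lower values in both MBP libraries than in the controls. Egfr had 1 read in control 1 and 0 in the other libraries. The ERBB3 ligand Nrg1 was near 0, with 8, 1, 2 and 1 reads, and Nrg2 had a mean of 2.37 FPKM. Some ligands of the EGF receptor were higher, with Hbegf at a mean of 43.2 FPKM and Areg at 8.79. Erbb4 and Nrg3 were not analysed here.

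The surface markers of oligodendrocyte precursors were near 0. Pdgfra (chromosome 5, 75152292 to 75198215, plus strand) measured 0.0451 and 0.0127 FPKM without MBP and 0.0292 and 0.0231 with it, from 11, 3, 7 and 6 reads. Cspg4 (chromosome 9, 56865033 to 56899870, plus strand) measured 0.162 and 0.128 FPKM without MBP and 0.0945 and 0.0841 with it, from 47, 36, 27 and 26 reads. The groups overlapped for Pdgfra and did not for Cspg4. The related receptor Pdgfrb had a mean of 6.51 FPKM, 157.7 to 524.0 times Pdgfra within a library, where the higher factor rests on the 3 Pdgfra reads of control 2. The ligand of PDGFRA, Pdgfa, had 21.5 ± 1.18 FPKM (SD, all 4 libraries). Of genes whose products bind NG2, the integrin subunits Itgb1 and Itga3 had means of 237.4 and 33.9 FPKM, and the collagen VI chains Col6a1 and Col6a2 23.6 and 4.32.

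**Figure D2:**
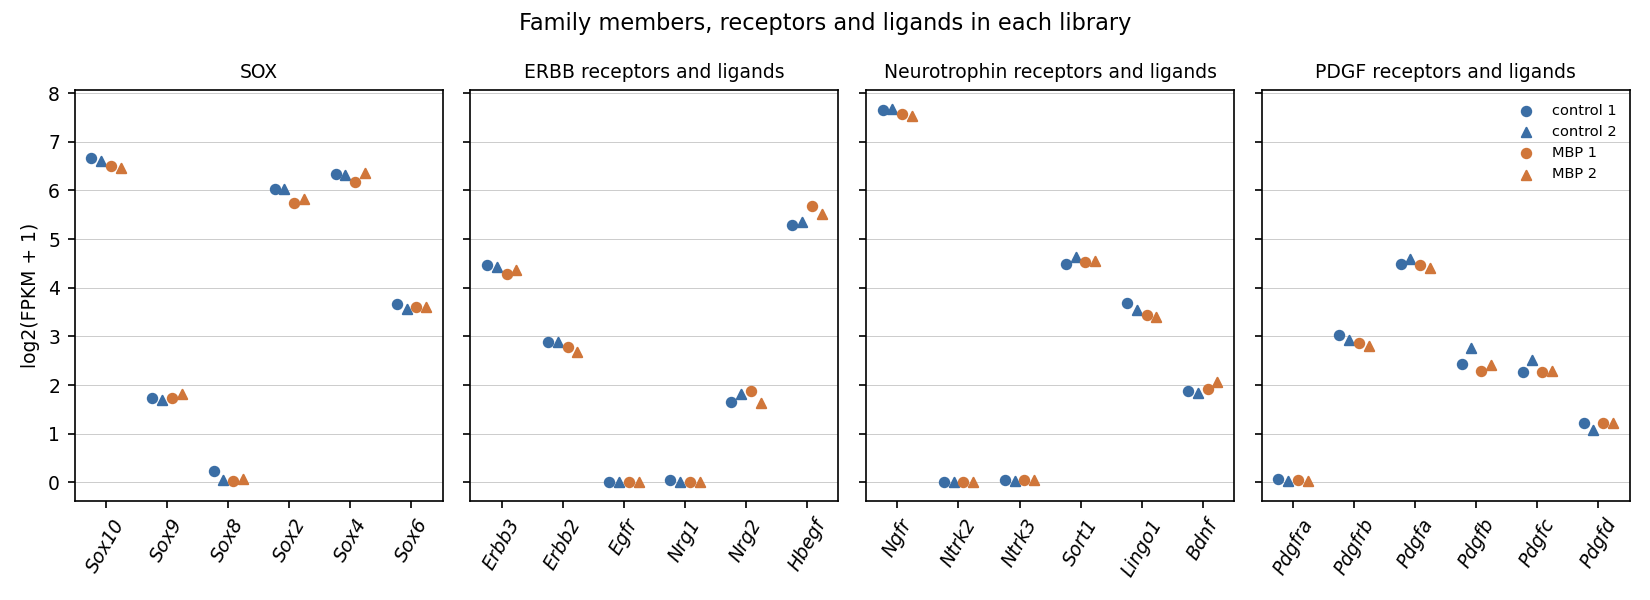
log2(FPKM + 1) of genes in 4 families, for each library (circles and triangles for replicate 1 and 2, blue for control, orange for MBP). Sox10, Erbb3 and Ngfr are high beside relatives near 0 such as Sox8, Egfr and Ntrk2, whereas Pdgfra is near 0 beside Pdgfrb. Other genes of these panels are not near 0, among them Sox4, Sox2, Erbb2 and Sort1 (means of 78.1, 59.3, 6.02 and 22.4 FPKM).

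Marker lists showed which genes accompanied the members. Beyond the 5 members it holds, the list of oligodendrocyte precursors had 8 genes in the table, of which 3 reached the filter. These were Sox6, C1ql1 (7.73 FPKM, mean of the 4 libraries) and Nkx2-2 (2.99). Defining markers were near 0, with 3 to 5 reads for Gpr17, 1 to 4 reads for Ptprz1 and 0 to 3 reads for Lhfpl3. Of 20 genes of myelinating oligodendrocytes, 12 were in the table and 4 reached the filter. Among these, Tcf7l2, Cnp and Aspa had means of 7.63, 4.49 and 3.59 FPKM. Mbp, which encodes a main myelin protein, had a mean of 0.185 FPKM, and Myrf, the regulator of the myelinating stage, and Mag had 2 to 14 reads and 0 to 2 reads.

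In the Schwann cell list, 21 of 22 genes were in the table. Without Ngfr, Erbb3 and Egr2 there were 18, of which 11 reached the filter and 7 had a mean of at least 10 FPKM. Over all 24169 genes, 12403 reached the filter, and a mean of 10.2 FPKM, that of Id3, exceeded 80.5% of genes. Cryab had a mean of 75.6 FPKM, Sox2 59.3, the adhesion molecule Ncam1 56.5 and Jun, which marks immature and repair Schwann cells, 45.1. Cdh19, a cadherin of Schwann cell precursors, had 17.0, Pmp22, a peripheral myelin protein, 16.7, and Foxd3, a neural crest factor, 12.4 ± 2.19 (SD, all 4 libraries). Of genes of the myelinating stage, Pou3f1 had 3 to 7 reads and Prx, which encodes a protein of myelinating Schwann cells, a mean of 3.00 FPKM. Cryab, Jun, Ncam1 and Sox2 are made by many cell types.

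Of 15 genes of neural crest and melanocytes, 8 were in the table and 4 reached the filter. Tfap2a, a neural crest factor, had 41.3 ± 2.01 FPKM, Pax3 23.3 ± 1.92, Snai2 8.91 ± 0.965 and Mitf, the melanocyte regulator, 2.06 ± 0.338 (SD, all 4 libraries). Pmel, a pigment gene, had 0 to 3 reads. Among fibroblast and pericyte markers, 4 of 8 reached the filter, led by Acta2, an actin of smooth muscle and contractile fibroblasts, with a mean of 557.9 FPKM, while Dcn had 0 to 1 reads and Col1a2 9 to 19 reads. In the neuron list 2 of 6 did, with Tubb3 at a mean of 27.8 FPKM and Snap25 at 0 to 1 reads. In the microglial list 1 of 4 did, Tmem119 at a mean of 5.24 FPKM, and Ptprc had 0 to 4 reads.

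**Figure D3:**
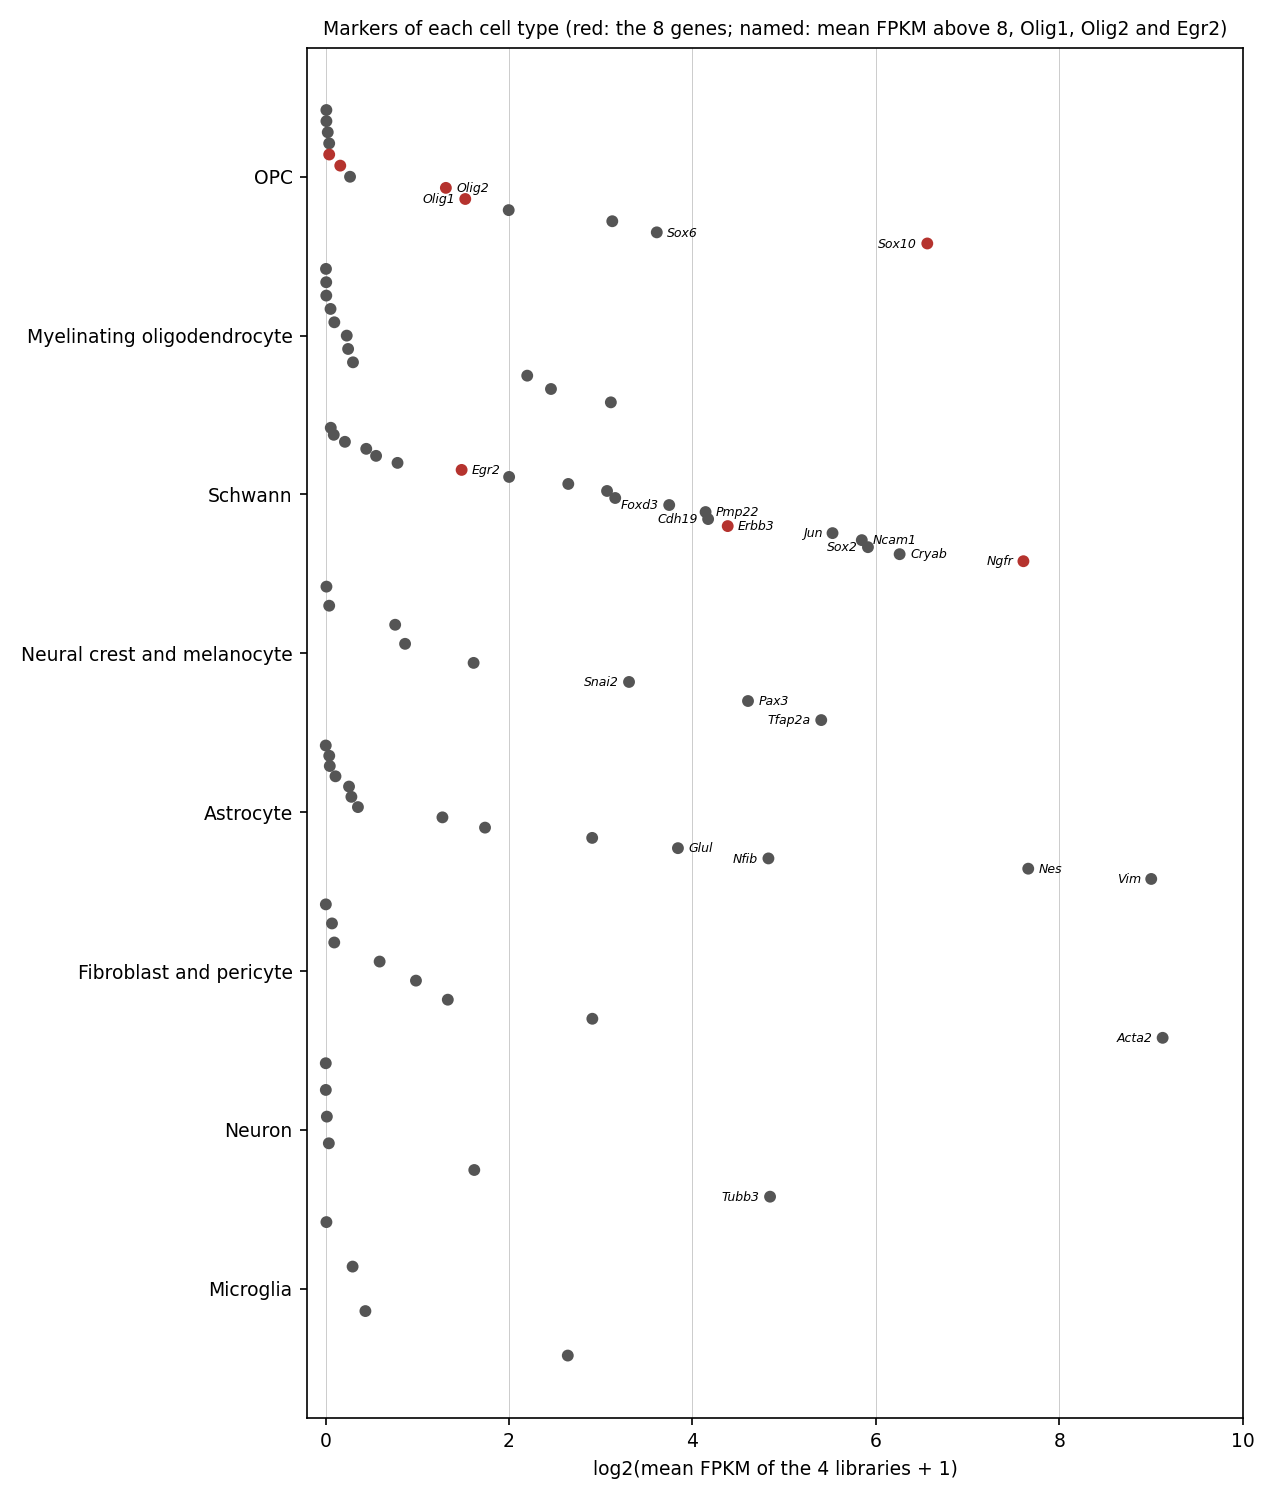
Each point is 1 marker gene of those reported, at log2 of its mean FPKM over the 4 libraries plus 1, in rows by cell type (OPC, oligodendrocyte precursor) and in order of level within a row. The 8 genes are in red, each in the list that holds it; Ngfr is the highest gene of the Schwann row and Sox10 of the precursor row, and Tfap2a and Pax3 lead the neural crest row.

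No gene of the table overlapped a member by the deposited coordinates, which bears on reads that could be credited to a neighbour. The gene next to Sox10 is Polr2f, a subunit of RNA polymerases, 3.14 kb away on the other strand, with a mean of 32.9 FPKM. Sox10 was 2.62 to 3.19 times Polr2f within a library. Erbb3 lies 1.54 kb from Pa2g4 on the same strand, which had a mean of 67.5 FPKM. Egr2 lies 2.32 kb from Ado (17.4 FPKM) and Cspg4 0.354 kb from Odf3l1 (5.50 FPKM). Strand use in the authors' counting is unknown here. The 5 protein-coding genes with values most like those of Sox10, by Euclidean distance of log2(FPKM + 1) over the 4 libraries, were Ranbp1 (0.0549), Ptbp1 (0.0646), Col4a1 (0.0799), Myl12a (0.0857) and Trim28 (0.104). With 4 libraries this measures mainly a like level, and 20 genes lay within 0.2.

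The remaining comparison set MBP libraries against controls for the same genes. Of the 6 members tested, 0 passed limma's test at an adjusted p under 0.05, and neither did any of the 12403 genes tested (0%; lowest adjusted p = 0.392). At an unadjusted p under 0.05 in limma there were 2 of 6 members, Sox10 and Olig1, both lower in MBP, against 9.68% of all genes tested. In 4 of 6 members (Ngfr, Sox10, Erbb3 and Olig1) both MBP libraries were under both controls, against 23.5% of all genes tested, and in 1 (Egr2) both were above, against 21.3%. The members' median log2 fold change was -0.13, with 5 of 6 negative, beside -0.0048 over all genes tested. Limma-voom on recovered reads called 18 genes, none of them a member.

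Sox10 averaged 98.1 ± 2.71 FPKM without MBP and 88.7 ± 1.34 with it (SD, n = 2 each). On the scale of log2(FPKM + 1) its fold change was -0.14 (SE 0.0553, unadjusted 95% interval -0.28 to -0.0012, limma adjusted p = 0.514). Ngfr averaged 202.1 ± 0.948 FPKM without MBP and 186.2 ± 3.53 with it, with a log2 fold change of -0.12 (95% interval -0.27 to 0.031, limma adjusted p = 0.549). Erbb3 averaged 20.8 ± 0.449 FPKM without MBP and 18.9 ± 0.781 with it, with -0.13 (95% interval -0.28 to 0.015, limma adjusted p = 0.528). The 3 abundant members thus had lower values by similar amounts, and none of these differences passed the test.

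Olig1 averaged 2.29 ± 0.466 FPKM without MBP and 1.45 ± 0.0637 with it, with a log2 fold change of -0.42 (95% interval -0.75 to -0.082, limma adjusted p = 0.503). Its controls differed by -0.29 (control 2 minus control 1) on the same scale, and without control 1 its log2 fold change was -0.27. Egr2 averaged 1.60 ± 0.115 FPKM without MBP and 1.99 ± 0.319 with it, with 0.19 (95% interval -0.11 to 0.50, limma adjusted p = 0.599), and stood at 0.085 without MBP 1 and 0.30 without MBP 2. Olig2 stood at -0.035 (95% interval -0.37 to 0.30, limma adjusted p = 0.940), at 0.10 without MBP 1 and at -0.17 without MBP 2. When genes under the filter were fitted too, Cspg4 stood at -0.072 (limma adjusted p = 0.692) and Pdgfra at -0.0037 (limma adjusted p = 0.981), on a scale that shrinks differences at such levels.

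Across 12389 genes, which are not independent replicates, the fold change was lower for genes of higher GC content in the longest transcript (Spearman's rho -0.44). GC content was 61.8% for Sox10, 61.1% for Olig1, 58.6% for Ngfr, 58.5% for Olig2, 51.4% for Egr2 and 51.2% for Erbb3. After a loess correction of each library for GC content and length, the log2 fold change was -0.035 for Sox10 (95% interval -0.17 to 0.10), -0.031 for Ngfr and -0.12 for Erbb3. It was -0.30 for Olig1, 0.24 for Egr2 and 0.065 for Olig2. The values of Sox10 and Ngfr thus moved most of the way to 0, and that of Erbb3 moved little. Quantile normalization, which uses neither GC content nor length, gave -0.056 for Sox10, -0.028 for Ngfr and -0.12 for Erbb3. The GC and length correction would also remove any effect of MBP that follows GC content. The cause of these shifts was not tested.

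**Figure D4:**
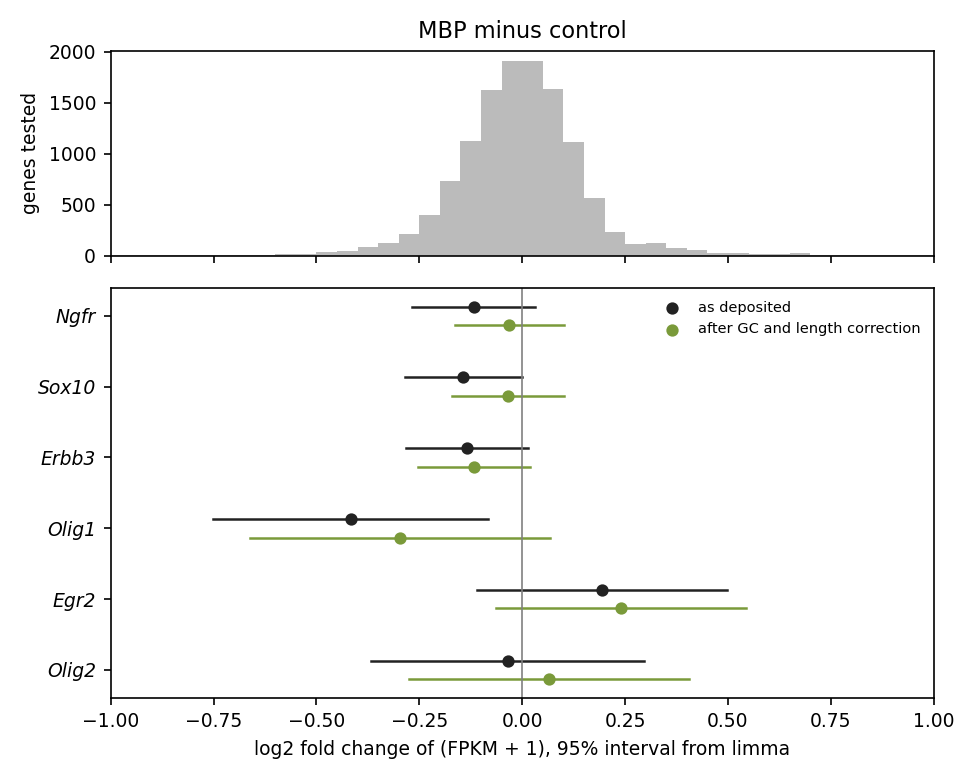
Top, the log2 fold changes (MBP minus control) of the genes tested that lie between -1 and 1, as numbers of genes per bin. Bottom, the 6 tested members with limma's 95% intervals, as deposited (black) and after the GC and length correction (green). Sox10 and Ngfr lie at -0.14 and -0.12 before it and at -0.035 and -0.031 after it.

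In limma's test 0 genes of the marker and pathway lists passed over all genes. Over the 14 tested genes of the Schwann cell list, which includes Ngfr, Erbb3 and Egr2, the median was -0.11, with 12 negative, and -0.057 after the GC and length correction. In 9 of the 14 both MBP libraries were under both controls, against 23.5% of all genes tested. At an unadjusted p under 0.05 in limma there were 2 of the 14, Foxd3 and Sox2, against 9.68% of all genes tested. Foxd3 measured 13.8 and 14.7 FPKM without MBP and 10.9 and 10.2 with it, a log2 difference of -0.40 (limma adjusted p = 0.457, and -0.27 after the correction). Sox2 measured 64.1 and 64.8 FPKM without MBP and 52.3 and 55.9 with it, a log2 difference of -0.25 (limma adjusted p = 0.491, and -0.20 after the correction). The groups did not overlap for either gene.

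The neural crest and melanocyte list had a median of 0.13 over 4 tested genes, all positive, and 0.12 after the correction. Both MBP libraries were above both controls for 3 of the 4 (Tfap2a, Pax3 and Mitf), against 21.3% of all genes tested, with log2 fold changes of 0.092, 0.14 and 0.24. The list of precursors, which includes Sox10, Olig1 and Olig2, had a median of -0.13 over 6 genes, all negative, and -0.064 after the correction. Among myelinating oligodendrocyte genes the median was -0.10 over 4, and -0.17 after the correction. Among neurotrophin receptors and ligands it was -0.12 over 9, and -0.031 after it. For PDGF receptors and ligands it was -0.10 over 5, and -0.077 after it, and for SOX genes -0.053 over 8, and -0.028 after it. For bHLH factors and inhibitors, where Id3 stood at -0.51 (limma adjusted p = 0.392), it was -0.085 over 10, and -0.033 after it. For ERBB receptors and ligands, where Areg and Hbegf stood at 0.33 and 0.27, it was 0.035 over 6, and 0.05 after it. EGR and NAB genes had a median of 0.068 over 4, and 0.14 after the correction. NG2 partners had 0.019 over 6, and 0.013 after it. SOX10 cofactors had 0.025 over 17, with 6 negative, and -0.005 after it, with 10 negative.

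Marker lists of other cell types were summed in the same libraries. Neuron markers summed to 35.4 and 32.6 FPKM without MBP and to 25.9 and 25.5 with it, most of it Tubb3. Of the 2 neuron genes tested, 1 had a negative log2 fold change (Tubb3) and 1 a positive one (Map2, 0.092). Microglial markers summed to 6.04 and 6.43 FPKM without MBP and to 5.10 and 5.71 with it, most of it Tmem119, the 1 gene tested there. Fibroblast and pericyte markers summed to 580.2 and 615.4 FPKM without MBP and to 550.1 and 524.5 with it, nearly all of it Acta2. Astrocyte markers summed to 796.8 and 780.2 FPKM without MBP and to 756.2 and 726.7 with it, most of it Vim and Nes. Over the 7 tested astrocyte genes the median log2 fold change was 0.053, with 4 positive, and 0.023 after the correction, so the sum and the median differ in sign. Neural crest and melanocyte markers summed to 78.3 and 69.9 FPKM without MBP and to 81.9 and 78.7 with it, with both MBP libraries above both controls. The 8 members summed to 328.5 and 324.8 FPKM without MBP and to 301.7 and 296.0 with it, most of it Ngfr and Sox10. In the sums of the members and of the neuron, microglial, fibroblast and astrocyte lists both MBP libraries lay under both controls. Of all genes tested, 23.5% were lower and 21.3% higher in this way. The sums follow the few abundant genes named for them and were not corrected for GC content and length. The part of other cell types in the members' values was not tested.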

How the data were processed

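Total RNA of 4 C8-D1A libraries was sequenced. The labels' protocols describe removal of ribosomal RNA and a kit that marks strand. Among the tools, bcl2fastq and HISAT2 appear in the submitters' processing notes, with genome GRCm38; versions, counting program, annotation and strand setting are not given. FPKM per gene is what the authors deposited. Columns were matched by title, and replicates were numbered in accession order, which pairs nothing. GENCODE M21, which held 24121 of the identifiers, gave exon lengths that turned FPKM into reads. For single-exon genes, at least 99.95% of values under 1000 reads were whole within 0.05, and for all genes at least 93.8%. Sox10 and Olig2 have other coordinates in that release, so no reads are given for them. Reads are not independent molecules.

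Values were tested across all genes as log2(FPKM + 1), which understates fold changes of low genes. The filter kept genes reaching 1 FPKM in 2 or more libraries. The test was limma 3.58.1 (R 4.3.3; eBayes with a trend, two-sided), with Benjamini-Hochberg adjustment over 12403 genes and a threshold of 0.05. It was also run on simulated counts with equal depth, the same spread setting for all genes and no shift with GC content. That run therefore cannot vouch for the test on these libraries. Alternatives were TPM, quantile and median-of-ratios scaling, a filter of 5 or none, pseudocounts of 0.1 and 0.01, protein-coding genes only, no spread trend, a GC and length correction (loess, span 0.5), limma-voom on recovered reads (mean of at least 10), and each library left out.

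Members and lists were chosen with earlier results of these data known. The listed symbol Taz is tafazzin in the table, not the YAP-related cofactor, and was left out of the SOX10 cofactors after the data were seen. Named genes were the members, listed genes by level or near 0, nearest neighbours, and the 5 genes most like Sox10. Id3, Foxd3, Sox2, Areg and Hbegf were named in the comparison after their values were seen. Listed genes outside the table were not analysed here, and some others, though counted in their lists, are not reported here by name.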

Additional observations from a re-analysis of the deposited data

How the results depend on the processing

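No gene passed limma's test in the main fit, where 1201 had an unadjusted p under 0.05, and none did in 14 of 15 alternatives. Limma-voom on recovered reads called 18 genes, 17 of them lower; the cause was not tested. With 1 library left out the count ran from 0 to 0. The fold changes of 5 members kept their sign in the alternatives that could be run for them, and none passed the test: -0.17 to -0.035 for Sox10, -0.14 to -0.028 for Ngfr, -0.17 to -0.093 for Erbb3, -0.64 to -0.27 for Olig1 and 0.085 to 0.30 for Egr2. Adjusted p for Sox10 ran from 0.342 to 0.974. Olig2 turned to 0.065 with the GC and length correction and to 0.10 without MBP 1; the cause was not tested. Cspg4 stood at -0.69 in limma-voom (adjusted p = 0.417), for which Pdgfra had too few reads, and a filter of 5 removed Olig1, Olig2 and Egr2. Among protein-coding genes only, the share with a lower mean was 99.3% for Ngfr, 98.3% for Sox10, 85.2% for Erbb3, 41.5% for Olig1, 41.1% for Egr2, 39.3% for Olig2, 24.6% for Cspg4 and 16.7% for Pdgfra, because fewer genes are ranked; among all genes it was, in the same order, 99.5%, 98.9%, 89.9%, 55.8%, 55.4%, 53.3%, 31.6% and 19.6%. No paired analysis was possible because replicate numbers follow accession order. At 26 to 47 reads for Cspg4 and 3 to 11 for Pdgfra, modest differences in these genes were not detectable.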
